A study of Mus musculus with 11 samples.

Results

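Of 18193 genes measured in GFP-sorted muscle cells of young mice, 80 (0.44%) had a trough at postnatal day 12 (P12): their RNA was lower at that age than at both postnatal day 1 (P1) and postnatal day 28 (P28). A gene was chosen if its mean log2 value at P1 was at least 6, if the P12 mean lay at least 0.5 below both the P1 and the P28 mean, and if the 4 P12 arrays lay below every P1 and every P28 array. Collagen, Hox, Gm-numbered and Rik-named genes and Cma1 were left out, which removed 3 genes, 2410006H16Rik, Col14a1 and Cma1. The same rule turned upside down, for a peak at P12, found 172 genes. Because the 80 genes were chosen by their measured values at the 3 ages, the depth of their trough is described here and not tested.

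The cells came from mice that carry 1 copy of the Pax3GFP allele (Pax3GFP/+, C57BL/6J background), in which the Pax3 locus drives green fluorescent protein (GFP), and all groups shared this genotype. They were freed from muscle with trypsin and collagenase, cleared of dead cells with propidium iodide and sorted on GFP alone, so a cell of any kind with GFP or similar fluorescence could enter the gate. The P1 group (n = 4 arrays) and the P12 group (n = 4 arrays) were labelled as proliferating satellite cells of trunk muscle, and the P28 group (n = 3 arrays) as satellite cells from pectoral, intercostal and abdominal muscles. Satellite cell markers were present at every age: the mean of 12 markers lay from 9.30 to 9.90 at P1, from 9.76 to 10.06 at P12 and from 10.48 to 10.59 at P28, where bacterial control probe sets averaged 3.36 to 3.64. Nothing in the labels says how many animals gave an array, so the spread between arrays may be partly technical.

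Satellite cells lie between the muscle fibre and its basement membrane; around birth they divide and feed nuclei into growing fibres, and with age most of them become quiescent. Muscle also holds fibroblasts and fibro-adipogenic progenitors, marked by Pdgfra and Cd34, which build the connective tissue matrix, and macrophages and mast cells, which reside between the fibres. Small leucine-rich proteoglycans, thrombospondins and lysyl oxidase shape the collagen network of that matrix, and TIMP proteins restrain the proteases that remodel it. Sarcomeres, the contractile units, are anchored at Z-discs and cross-linked at M-bands. In sorted bulk RNA, fewer cells of a type and less RNA per cell cannot be told apart.

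The 80 genes fell into matrix genes (17), secreted signals and surface receptors (17), immune genes (9), sarcomere genes (6), transcription factors (6), intracellular signalling genes (9) and genes of metabolism or other function (16), by a grouping made after the genes were known. Their median difference was 0.79 on the log2 scale between P1 and P12 (range 0.50 to 2.03) and 1.20 between P28 and P12 (0.51 to 3.73), against -0.02 and -0.03 over all genes. In 24 of them both differences were at least 1, which is a doubling. The plot of all genes by both differences shows them in its upper right corner.

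**Figure D1:**
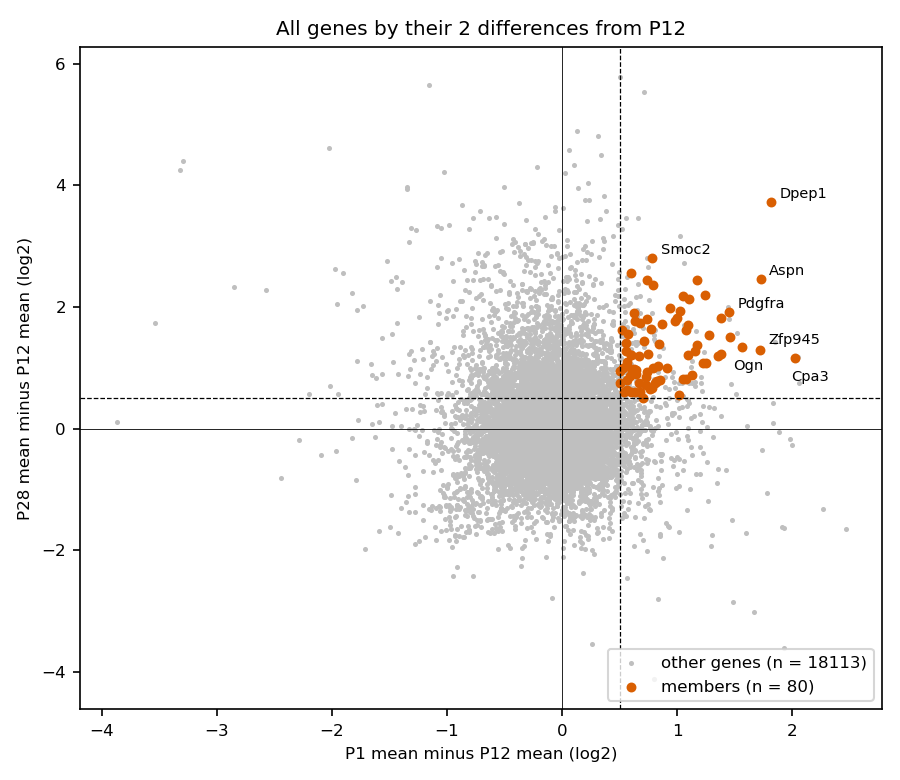
Each point is 1 gene, placed by its P1 mean minus P12 mean (horizontal) and its P28 mean minus P12 mean (vertical), both in log2 units, with the 80 chosen genes in orange and dashed lines at the minimum of 0.5. Dpep1, Aspn, Ogn, Pdgfra, Zfp945 and Cpa3 lie farthest to the right among the labelled genes, and some grey genes past both lines failed the non-overlap, P1 minimum or symbol conditions.

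The arrays were not alike in every respect. The 3' to 5' difference of Gapdh probe sets, a sign of RNA shortening, averaged 2.18 ± 0.60 at P1 (SD, n = 4), 2.10 ± 0.88 at P12 (SD, n = 4) and 0.90 ± 0.10 at P28 (SD, n = 3) in log2 units, and it was higher in replicates 1 and 2 of P1 and P12 than in replicates 3 and 4. P1 replicate 1 stood apart from the other P1 arrays: Xist, the RNA of the inactive X chromosome of females, read 11.29 there and 5.82 to 5.96 in the others, the Y-linked gene Kdm5d read 5.76 against 7.30 to 7.50, and the mean of 9 neutrophil markers was 7.12 against 5.46 to 5.61. For Xist, however, P1 replicate 1 resembled the later ages, and P1 replicates 2, 3 and 4 were the ones that differed. Its range was 10.59 to 11.70 over the P12 arrays, while the P28 arrays gave 10.66 to 11.81. Kdm5d values were 6.28 to 6.72 for P12, whereas those for P28 were 4.23 to 5.32, all below P1 replicates 2, 3 and 4. The mix of male and female animals may therefore differ between P1 and both later ages. P1 replicate 1 also held the highest P1 value in 45 of the 80 genes, against 32.7% of all genes. All P28 arrays differ from the others in the muscles sampled and in a suffix of their internal names. Their lowest values (1.65 to 2.09) lay above those of the other arrays (-0.78 to 0.48). Age, muscles, a possible batch and the sex of the animals therefore cannot be told apart for P28. Between P1 and P12, age and sex cannot be fully told apart either. The part of these differences in the results was not tested.

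Left out in turn, the arrays changed the membership unevenly. With P1 replicate 1 left out, 65 of the 80 genes still met the rule, and the 15 lost were Mn1, Amhr2, Fam124a, Vldlr, Asb2, Has1, Tm6sf1, Akap12, Actn2, Mapk1ip1, Btnl9, Sphk1, Ntrk2, Itgb3 and Usp54. With any other single array left out, 73 to 80 of them met it. A core of 51 genes met the rule whichever single array was left out. Taken over replicates 1 and 2 of P1 and P12 alone, the median P1 minus P12 difference of the 80 genes was 1.03, and over replicates 3 and 4 it was 0.68. All genes had medians of 0.01 and -0.06 in these subsets.

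Some of the 80 genes are neighbours in the genome. In the RefSeq gene table, Aspn and Ogn lie on chromosome 13 with Omd between them, and Smoc2 and Thbs2 lie next to each other on chromosome 17. Omd, also a small leucine-rich proteoglycan, had means of 4.45, 4.30 and 5.37 at P1, P12 and P28 and so had no trough of that size, and Ecm2, on the other side of Aspn, had means of 3.47, 3.74 and 5.06. Promoters are shown for 5 genes: Aspn and Ogn, the neighbouring pair with the deepest troughs of the matrix group; Thbs2, from the second pair; Cd68, the deepest trough of the immune group by the smaller difference; and Myoz2, the deepest of the sarcomere group. They are RefSeq sequences of GRCm38.p6, 250 bases upstream of the annotated start, 5′ to 3′ on the strand of the gene, with matches to any searched motif in capitals. They cover chr13:49544193-49544442 (plus strand, Aspn), chr13:49607765-49608014 (plus strand, Ogn), chr17:14694263-14694512 (minus strand, Thbs2), chr11:69666171-69666420 (minus strand, Cd68) and chr3:123034988-123035237 (minus strand, Myoz2).
Aspn: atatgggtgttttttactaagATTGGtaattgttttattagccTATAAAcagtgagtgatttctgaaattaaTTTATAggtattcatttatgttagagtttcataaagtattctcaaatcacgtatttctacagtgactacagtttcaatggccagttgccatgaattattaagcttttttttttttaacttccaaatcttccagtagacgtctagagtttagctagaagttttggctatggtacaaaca
Ogn: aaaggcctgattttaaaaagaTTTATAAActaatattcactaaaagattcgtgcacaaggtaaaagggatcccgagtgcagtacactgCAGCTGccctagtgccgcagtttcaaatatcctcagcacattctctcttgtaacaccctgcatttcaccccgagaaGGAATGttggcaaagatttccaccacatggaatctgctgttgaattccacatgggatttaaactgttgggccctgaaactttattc
Thbs2: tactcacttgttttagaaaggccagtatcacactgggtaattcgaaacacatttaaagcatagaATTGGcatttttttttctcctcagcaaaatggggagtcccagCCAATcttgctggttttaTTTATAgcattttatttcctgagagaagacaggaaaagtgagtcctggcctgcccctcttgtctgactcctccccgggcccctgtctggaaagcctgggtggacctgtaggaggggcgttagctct
Cd68: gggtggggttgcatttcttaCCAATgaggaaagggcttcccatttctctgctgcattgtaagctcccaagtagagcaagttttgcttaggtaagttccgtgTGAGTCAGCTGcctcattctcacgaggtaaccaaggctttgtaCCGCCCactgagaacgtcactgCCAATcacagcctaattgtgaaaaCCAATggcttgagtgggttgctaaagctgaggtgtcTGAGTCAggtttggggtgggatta
Myoz2: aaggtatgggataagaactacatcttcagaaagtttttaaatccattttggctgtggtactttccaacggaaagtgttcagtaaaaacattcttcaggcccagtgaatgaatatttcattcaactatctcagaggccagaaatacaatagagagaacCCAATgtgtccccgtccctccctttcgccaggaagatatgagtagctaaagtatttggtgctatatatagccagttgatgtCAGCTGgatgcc

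The letters TATAAA were found in the Aspn, Ogn and Thbs2 windows and in neither of the other two, CCAAT in all but the Ogn window, and CAGCTG, an E-box of the kind that myogenic factors can bind, in the Ogn, Cd68 and Myoz2 windows. TGACTCA, the letters of an AP-1 site, was found at 2 places in the Cd68 window, where 1 of them overlaps the CAGCTG. Across the group, 55 of the 80 genes matched at least 1 promoter in the table, giving 69 promoters of 300 bases (250 before and 50 after the start), with a median GC content of 53.7% against 52.7% over all 32851 promoters. Both strands were searched for 11 motifs. CAGCTG was present in 24.6% of the 69 and 16.3% of all promoters, TGACTCA in 10.1% and 5.2%, CACGTG in 11.6% and 7.15%, GGGCGG in 39.1% and 35.7%, CCAAT in 31.9% and 37.4%, and TATAAA in 11.6% and 13.6%. For CATTCC the shares were 17.4% and 14.7%, for TTCNNNGAA 10.1% and 8.3%, for CCGGAAG 5.8% and 8.86%, for TGTTTAC 2.9% and 3.65%, and for TGACGTCA 2.9% and 1.79%. Several of the 69 belong to the same gene, and a match describes letters only, not a bound site.

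The matrix genes, with 17 members, built, modified or degraded the extracellular network. Their mean over 17 genes ran from 7.38 to 7.51 in the P1 arrays, from 6.32 to 6.66 in the P12 arrays and from 7.90 to 8.37 in the P28 arrays. Aspn, which encodes the small leucine-rich proteoglycan asporin, read 7.86, 8.04, 7.95 and 8.22 in the P1 arrays, 5.65, 6.00, 6.89 and 6.62 in the P12 arrays and 9.39, 8.50 and 8.35 in the P28 arrays, in replicate order. P12 was 3.31-fold below P1 and 5.49-fold below P28, and the gap between the highest P12 and the lowest P1 array was wide compared with the spread within P1. Ogn, which encodes the related proteoglycan osteoglycin, read 9.99, 9.73, 9.70 and 9.79 at P1, 7.65, 8.55, 8.88 and 7.86 at P12 and 10.27, 9.41 and 9.03 at P28. Its P12 arrays spread over more than 1 log2 unit, and P28 replicate 3 lay only slightly above the highest of them. The P28 and P1 arrays of Ogn overlapped.

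Smoc2, a secreted calcium-binding matrix protein, behaved otherwise: it read 6.30, 6.71, 6.59 and 6.38 at P1, 5.90, 5.02, 6.06 and 5.86 at P12 and 9.21, 8.12 and 8.19 at P28. Here the P12 dip was small beside the P28 level, which was 6.95-fold above P12 and 4.03-fold above P1. Its neighbour Thbs2, a thrombospondin that modulates contacts between cells and matrix, read 8.18, 8.16, 7.92 and 8.19 at P1, 7.24, 7.34, 7.40 and 7.38 at P12 and 9.49, 8.77 and 8.65 at P28, so that the ages formed 3 separate tiers. Thbs3, of the same family, had means of 7.75 ± 0.13 at P1 (SD, n = 4), 6.48 ± 0.39 at P12 (SD, n = 4) and 8.02 ± 0.44 at P28 (SD, n = 3). Mgp, an inhibitor of matrix calcification, read 8.93 to 9.51 at P1, 7.52 to 8.81 at P12 and 10.43 to 10.81 at P28. Timp1, an inhibitor of metalloproteinases, read 7.21 to 7.44, 6.31 to 7.15 and 8.32 to 8.91 at the 3 ages. P12 replicate 4 was the highest P12 array of both Mgp and Timp1 and came near the P1 arrays of Timp1. Lox, the enzyme that cross-links collagen and elastin, read 7.07 to 7.59, 6.41 to 6.97 and 7.52 to 8.03. The other 9 matrix genes were Timp4, Has1 (a hyaluronan synthase), Ctsk (a collagen-degrading protease), P3h3 (a collagen prolyl hydroxylase), Mfap2 (a microfibril protein), Pamr1, Adamtsl3, B3gnt9 and Hs3st3b1, with P1 minus P12 from 0.53 to 1.23 and P28 minus P12 from 0.82 to 2.19.

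P28 replicate 1 held the highest P28 value in 13 of the 17 matrix genes and in 13 of the 17 signal and receptor genes. In the sarcomere group it held the highest value in 0 of 6 genes and the lowest in 5, and in the immune group the lowest in 5 of 9. The group means placed P28 replicate 1 in the same way, highest of the P28 arrays for the matrix and the signal and receptor genes and lowest for the sarcomere and immune genes. No share over all genes is given for these counts, and the sarcomere and immune groups are small. The difference between the groups is therefore a description and no test. The heat map of all 80 genes shows it beside the blue P12 block.

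**Figure D2:**
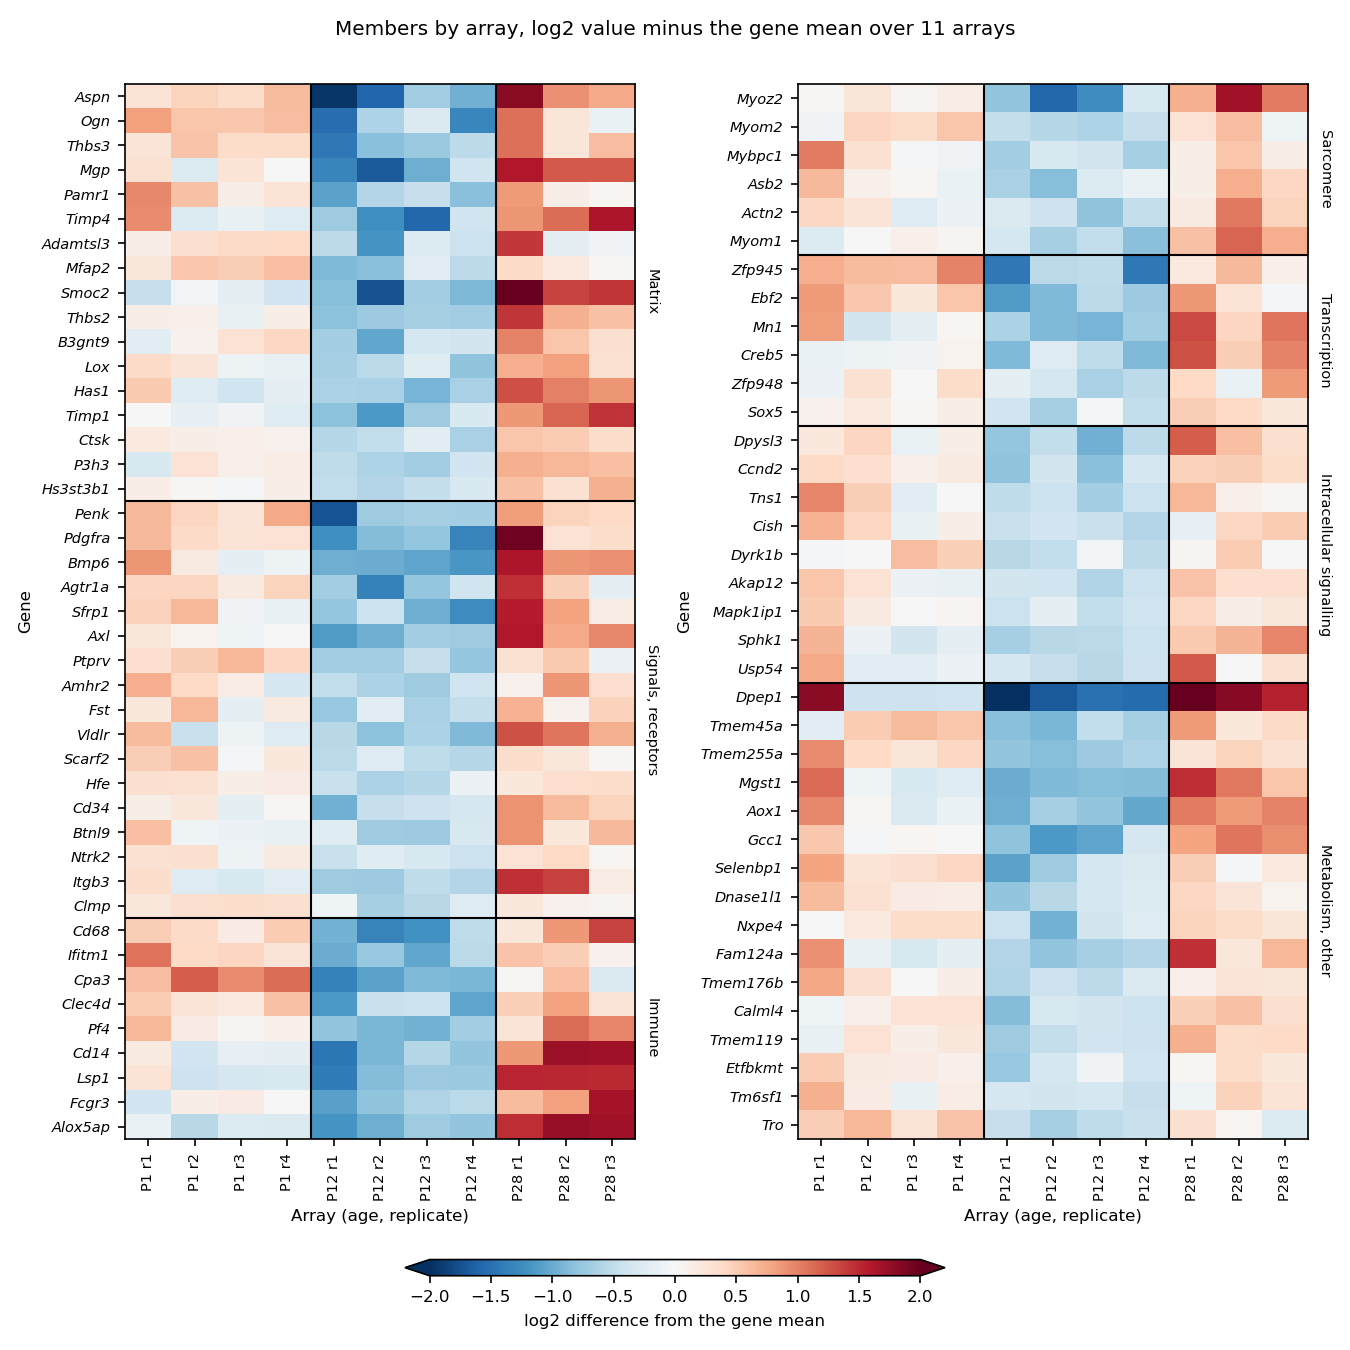
Rows are the 80 genes in their 7 groups, columns the 11 arrays, and colour gives the log2 value minus the mean of that gene over the arrays, clipped at 2 in either direction. All P12 columns are the lowest by construction. Among the P28 columns, replicate 1 is strongest in most matrix and receptor rows and weakest in most sarcomere rows.

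Fibroblast and tendon markers outside the 80 genes, which by the choice did not all meet the rule, are given for comparison. The list held 17 genes besides Pdgfra, Cd34 and Smoc2, and 9 of the 17 had P12 below both other ages by the means, against 23.0% of all genes. In P12 against P1, 1 of them was higher (Serpinf1, by 0.99) and 1 lower (Mfap5, by 1.01 on the log2 scale), where 4.53% and 2.04% of all genes passed (limma, Benjamini-Hochberg adjusted p under 0.05); the lower count was 0 when P1 replicate 2, 3 or 4, or else P12 replicate 1 or 2, was left out, and it was 2 with a replicate block. In P28 against P12, 12 were higher and 0 lower, where 15.7% of all genes passed in each direction. Of its brightest members, Col3a1 had means of 12.49 ± 0.36, 12.78 ± 0.30 and 12.79 ± 0.13 at P1, P12 and P28, Col1a1 11.62 ± 0.31, 11.72 ± 0.53 and 11.40 ± 0.19, and Dpt 11.44 ± 0.30, 11.24 ± 0.26 and 11.72 ± 0.36 (SD; n = 4, 4 and 3). None of these 3 passed in either step. The mean of the 20 list genes, the chosen ones included, lay from 8.05 to 8.39 at P1, 7.90 to 7.98 at P12 and 9.16 to 9.85 at P28. Without the 3 chosen genes the ranges were 8.08 to 8.43, 8.04 to 8.14 and 9.24 to 9.87, and P1 and P12 overlapped. Among 33 matrix genes outside the 80, 1 was higher (Sparc) and 6 were lower at P12 than at P1, and 18 were higher and 4 lower at P28 than at P12; the count of 1 was 2 without P1 replicate 1 and 0 without P1 replicate 3 or P12 replicate 1, 3 with a replicate block and 5 with the Gapdh difference in the fit. P12 was below both other ages by the means in 16 of the 33. Fbn2 and Vcan, both lower at P12 than at P1, fell again at P28, whereas Postn, Fbln5 and Lama4 fell at P12 and did not pass in P28 against P12 (differences of 0.04, 0.35 and 0.35).

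Secreted signals in the group were Penk and Bmp6 with the antagonists Sfrp1 and Fst. Penk, the precursor of the enkephalin peptides, read 7.20, 6.99, 6.82 and 7.32 at P1, 4.84, 5.85, 5.91 and 5.89 at P12 and 7.40, 7.01 and 6.96 at P28. By the means it was near its P1 level at P28. The difference P28 minus P1 was 0.04, with a 95% interval from -0.46 to 0.54, so an equal level is not shown. Bmp6, a bone morphogenetic protein, read 9.18, 8.48, 8.10 and 8.20 at P1, 7.31, 7.30, 7.25 and 7.14 at P12 and 9.92, 9.18 and 9.22 at P28, so P12 was 2.36-fold below P1 and its P12 arrays lay close together. Sfrp1, a secreted Wnt antagonist, read 7.05, 7.25, 6.52 and 6.44 at P1, 5.82, 6.15, 5.60 and 5.32 at P12 and 8.15, 7.39 and 6.74 at P28. Its P1 and P28 arrays overlapped. Fst, which binds activins and myostatin, had means of 6.14 ± 0.35, 5.40 ± 0.23 and 6.34 ± 0.31 (SD; n = 4, 4 and 3). Of 37 other genes of the Wnt, TGF-beta and BMP pathways, 3 were higher (Bmp2, Id2 and Wnt9a) and 2 lower (Dkk3 and Fzd8) at P12 than at P1. Leaving out single arrays gave 0 higher (P1 replicate 3 or 4), 1 (P1 replicate 2; P12 replicate 1, 2 or 4) or 5 (P1 replicate 1), and 0 lower (P12 replicate 1 or 4) or 1 (any P1 array). Of all genes, 4.53% were higher and 2.04% lower at P12 than at P1. At P28, 16 of the 37 were higher than at P12 and 3 lower, where 15.7% of all genes passed in each direction. P12 was below both other ages by the means in 12 of the 37, against 23.0% of all genes. Bmp4 had means of 9.49, 9.59 and 10.32 and Bmp5 of 6.05, 5.57 and 7.75, so Bmp5 dipped by the means without passing in P12 against P1 (adjusted p = 0.174, limma).

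Pdgfra, the receptor for platelet-derived growth factor A that marks fibro-adipogenic progenitors, read 8.16, 7.91, 7.80 and 7.81 at P1, 6.30, 6.65, 6.75 and 6.18 at P12 and 9.47, 7.82 and 7.87 at P28. P1 and P12 were separated by more than 1 log2 unit, while at P28 only replicate 1 rose clearly above P1. Cd34, a surface sialomucin of satellite cells, fibro-adipogenic progenitors and endothelium, read 9.41 to 9.81 at P1, 8.63 to 9.25 at P12 and 10.04 to 10.49 at P28. Agtr1a, an angiotensin II receptor, read 6.86 to 7.14, 5.34 to 6.29 and 6.49 to 8.14. The other receptors and surface proteins included the receptor tyrosine kinase Axl, the neurotrophin receptor Ntrk2, the anti-Müllerian hormone receptor Amhr2, the lipoprotein receptor Vldlr, integrin Itgb3, Hfe (a regulator of iron uptake), Scarf2, Ptprv, Btnl9 and the adhesion molecule Clmp. These 10 had P1 minus P12 from 0.52 to 1.13 and P28 minus P12 from 0.51 to 1.99.

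**Figure D3:**
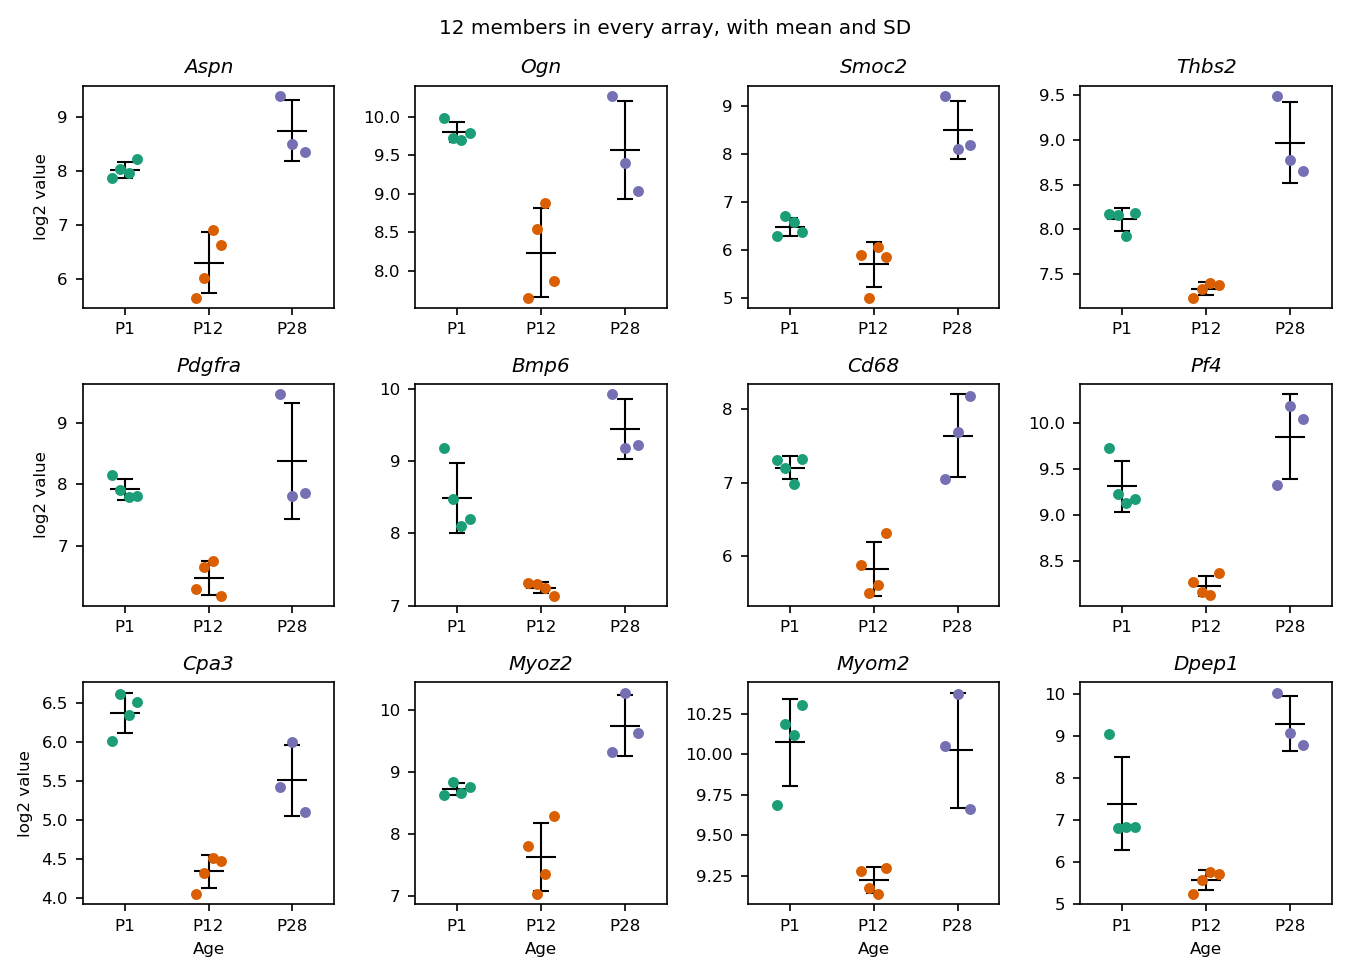
Log2 values of 12 genes in each array, coloured by age, with the mean and SD of each age (n = 4, 4 and 3 arrays). Every P12 point lies below all other points of its panel, while the P28 points are above P1 in Aspn, Smoc2, Thbs2 and Myoz2 and below it in Cpa3.

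Immune genes in the group marked more than 1 cell type. Cd68, a lysosomal protein of macrophages, read 7.31, 7.20, 6.98 and 7.32 at P1, 5.88, 5.49, 5.61 and 6.32 at P12 and 7.05, 7.69 and 8.18 at P28, a 2.6-fold fall from P1 to P12. Its P28 arrays spanned more than 1 log2 unit and overlapped P1. Cd14, the co-receptor for bacterial lipopolysaccharide, read 6.99, 6.44, 6.66 and 6.62 at P1, 5.36, 5.91, 6.24 and 6.03 at P12 and 7.68, 8.54 and 8.51 at P28. Pf4, the chemokine platelet factor 4, read 9.72, 9.22, 9.13 and 9.17 at P1, 8.27, 8.16, 8.13 and 8.37 at P12 and 9.32, 10.18 and 10.04 at P28. In all 3 genes P28 replicate 1 was the lowest P28 array. Alox5ap, needed for leukotriene synthesis, had means of 6.07 ± 0.18, 5.47 ± 0.21 and 8.03 ± 0.14, and Lsp1, an actin-binding protein of leukocytes, of 8.02 ± 0.32, 7.28 ± 0.32 and 9.72 ± 0.02 (SD; n = 4, 4 and 3). For these 2 the P12 dip was the smaller part of the pattern. Clec4d, a lectin receptor of myeloid cells, and Ifitm1, an interferon-induced membrane protein, had P28 minus P1 differences of 0.13 and -0.16. The group also held Fcgr3, a receptor for immunoglobulin G.

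Most macrophage markers outside the 80 dipped at P12 by their means, without passing the test against P1 with all arrays. Of 14 such genes, 0 were higher and 0 lower at P12 than at P1 at an adjusted p under 0.05 (limma), with 5 lower at an unadjusted p under 0.05; 3 were lower when P1 replicate 1 was left out and 2 when P28 replicate 1 or 3 was, and 1 with a replicate block. By the means P12 was below both other ages in 11 of the 14, against 23.0% of all genes, and its arrays were below all others in 1 of them, Tyrobp, against 1.3% of all genes. At P28, 8 were higher than at P12 and 0 lower (4 higher with the Gapdh difference in the fit). Of all genes, 15.7% passed in each direction there, and 4.53% were higher and 2.04% lower in P12 against P1. Csf1r, the receptor that maintains macrophages, had means of 9.54 ± 0.66, 8.84 ± 0.02 and 9.54 ± 0.71, C1qb 8.64 ± 0.56, 8.10 ± 0.39 and 9.03 ± 0.73, and Laptm5 8.83 ± 0.17, 8.96 ± 0.73 and 10.14 ± 0.58 (SD; n = 4, 4 and 3). P1 replicate 1 and P28 replicate 1 read 8.55 and 8.74 for Csf1r, below the other arrays of their ages. The mean of all 16 macrophage markers, Cd68 and Cd14 included, was 6.57 to 6.94 at P1, 6.25 to 6.56 at P12 and 7.16 to 8.30 at P28. Without these 2 genes it was 6.49 to 6.93, 6.32 to 6.61 and 7.13 to 8.29, and P1 replicate 1 overlapped the P12 arrays. Whether macrophage RNA had a part in the results was not tested.

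Cpa3, a carboxypeptidase of mast cell granules, had the largest P1 to P12 difference of the 80 genes. It read 6.02, 6.61, 6.35 and 6.51 at P1, 4.06, 4.33, 4.52 and 4.48 at P12 and 5.43, 6.00 and 5.11 at P28, which is a 4.08-fold fall and then a 2.24-fold rise. Its P28 arrays all lay below its P1 arrays. Cma1, the mast cell chymase that the choice of genes left out by name, read 6.77 to 7.72 at P1, 5.18 to 5.74 at P12 and 5.95 to 6.34 at P28 and met every other condition. Of the 11 mast cell markers other than Cpa3, it was the 1 that was lower at P12 than at P1 in the test (limma, adjusted p = 3.66e-05); without P1 replicate 1, or with the Gapdh difference in the fit, 2 were. Of all genes, 2.04% were lower in that contrast. In P28 against P12, 4 of the 11 were higher and 1 lower, where 15.7% of all genes passed in each direction. Without P28 replicate 2, or with the Gapdh difference in the fit, 2 were higher. By the means P12 was below both other ages in 5 of the 11 (Cma1, Fcer1a, Hdc, Ms4a2 and Mrgprb1), against 23.0% of all genes. The P12 arrays were below all others in 2 (Cma1 and Fcer1a), against 1.3% of all genes. Tpsb2, a tryptase, had means of 6.32 ± 0.41, 6.03 ± 0.12 and 5.80 ± 0.29 and Gata2 of 6.31 ± 0.39, 6.36 ± 0.41 and 6.17 ± 0.33 (SD; n = 4, 4 and 3), neither with a trough. Kit, the receptor that defines the lineage, stayed between 4.09 and 4.54 on all arrays. The mean of 12 mast cell markers was 5.03 to 5.23 at P1, 4.59 to 4.72 at P12 and 4.86 to 5.15 at P28. Without Cpa3 and Cma1 it was 4.76 to 4.85, 4.54 to 4.74 and 4.72 to 4.94, and P12 and P28 overlapped. These means and the P12 values of Cpa3 were dim, as bacterial control probe sets averaged 3.36 to 3.64. Dips and folds at this level are poorly resolved.

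**Figure D4:**
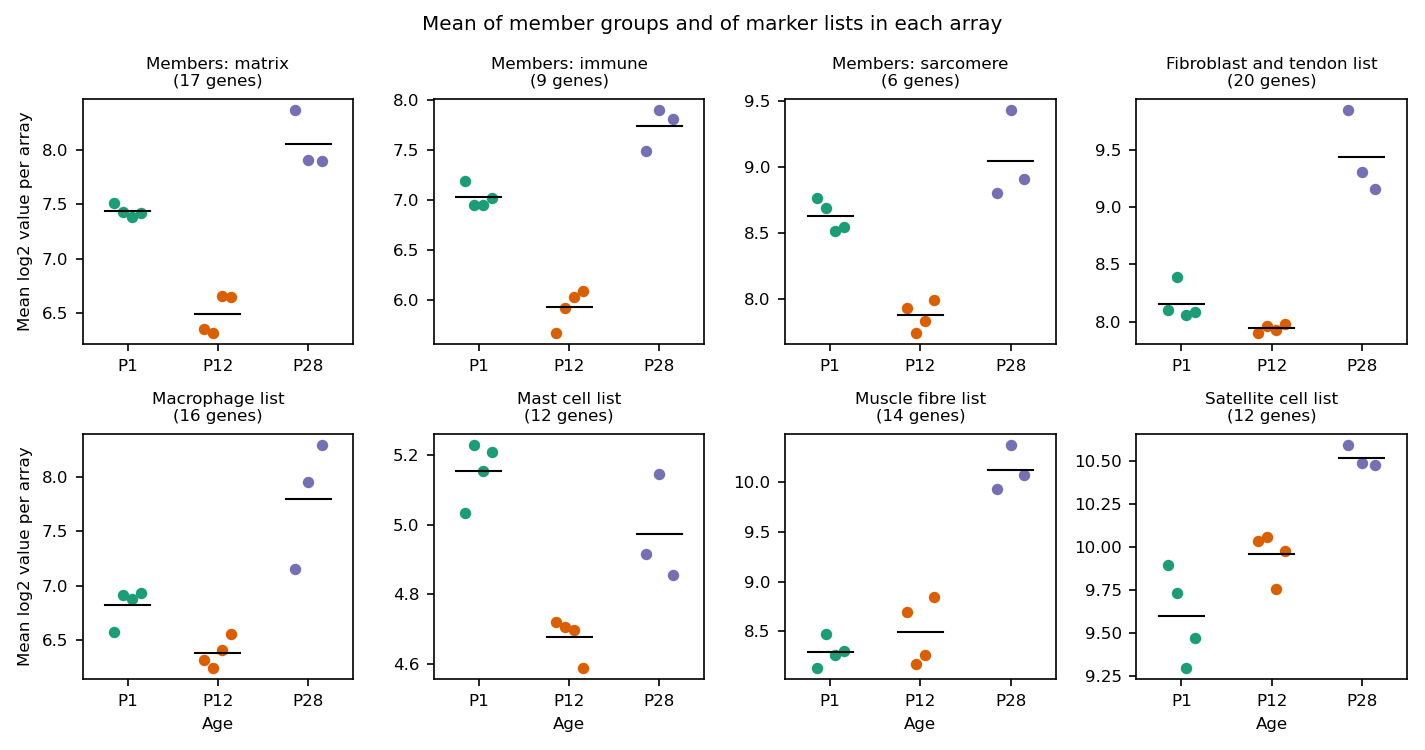
Mean log2 value per array of the matrix, immune and sarcomere genes of the group and of 5 marker lists, by age, with a bar at the mean of each age; each vertical axis has its own range. The macrophage, mast cell and fibroblast lists include genes chosen for their trough (Cd68 and Cd14, Cpa3, and Pdgfra, Cd34 and Smoc2), and their P12 means are the lowest as drawn; the satellite cell list, which holds none, has no trough.

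Sarcomere genes in the group included genes of Z-discs and M-bands. Myoz2, a Z-disc protein that binds calcineurin, read 8.63, 8.84, 8.67 and 8.76 at P1, 7.81, 7.03, 7.36 and 8.30 at P12 and 9.32, 10.29 and 9.64 at P28. P12 replicate 4 came close to the P1 arrays, and the P12 mean was 2.15-fold below P1 and 4.36-fold below P28. The other 5 were the M-band proteins Myom1 and Myom2, the slow myosin-binding protein Mybpc1, the Z-disc actinin Actn2 and Asb2, a subunit of a ubiquitin ligase that targets filamins, with P1 minus P12 from 0.56 to 0.85 and P28 minus P12 from 0.77 to 1.41. Without P1 replicate 1, Actn2 and Asb2 did not meet the rule. The array means of the 6 genes were 8.51 to 8.76 at P1, 7.74 to 7.99 at P12 and 8.80 to 9.43 at P28.

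Muscle fibre genes outside the 80 took several courses. Of 14, P12 was below both other ages by the means in 8, against 23.0% of all genes, and below every other array in 0. In the tests 4 were higher and 2 lower at P12 than at P1, where 4.53% and 2.04% of all genes passed. The lower count was 1 if any of P1 replicates 2, 3 and 4 was omitted, or either of P12 replicates 1 and 4. At P28, 11 were higher and 2 lower than at P12, where 15.7% of all genes passed in each direction. The adult fast myosins Myh1, Myh2 and Myh4 rose in both steps, from 8.47 to 10.09 and 10.92, from 7.16 to 8.15 and 9.10, and from 3.73 to 7.06 and 11.30. The developmental myosins Myh3 and Myh8 fell in both steps, from 9.20 to 8.45 and 7.13 and from 9.19 to 7.26 and 5.62. Acta1, Mylpf and Tnni2 were among the 8 that dipped by the means, but by at most 0.20 from P1, and were 1.59 to 2.21 higher at P28. Relatives of the chosen sarcomere genes, a list made after the values were seen, showed a dip by the means in 3 of 13. Myoz1 had means of 7.38, 7.02 and 10.84, Actn3 of 7.83, 8.70 and 12.39 and Mybpc2 of 5.99, 7.31 and 10.62, all far higher at P28. Among the chosen genes, Myoz2 and Myom1 were also higher at P28 than at P1 in the test (by 1.02 and 0.85), and P28 minus P1 lay between -0.05 and 0.48 in Myom2, Mybpc1, Actn2 and Asb2, which did not pass.

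Transcription factors in the group were the zinc finger genes Zfp945 and Zfp948, Ebf2, Mn1, Creb5 and Sox5. Zfp945 read 6.18, 6.09, 6.07 and 6.45 at P1, 4.02, 4.92, 4.95 and 4.04 at P12 and 5.65, 6.11 and 5.57 at P28. Its P12 arrays formed pairs, replicates 1 and 4 low and replicates 2 and 3 higher, and both other Zfp945 probe sets lacked the trough. Ebf2, a factor of adipose and mesenchymal progenitors, read 6.17 to 6.82, 4.83 to 5.43 and 5.93 to 6.83. Sox5, a factor of cartilage and neural development, lay at the edge of the rule with a difference of 0.50.

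Ccnd2, cyclin D2, was the 1 cell cycle gene of the group. It read 7.68 to 7.96 at P1, 6.74 to 7.24 at P12 and 7.93 to 8.07 at P28. These values are those of 1 of its 7 probe sets, and most of the others did not meet both minimum differences without overlap. Of 32 other cell cycle genes, 0 had P12 below both other ages by the means, against 23.0% of all genes, and most went the other way. At P12, 17 were higher than at P1 and 1 lower, where 4.53% and 2.04% of all genes passed (limma). At P28, 28 were lower than at P12, where 15.7% of all genes passed in each direction, and 0 were higher, also at an unadjusted p under 0.05 (limma). The count of 17 was 11 when P1 replicate 3 or 4 was left out, 7 without P12 replicate 1, 8 without P12 replicate 4 and 10 after further quantile normalization. The remaining intracellular signalling genes, among them Cish (an inhibitor of cytokine signalling), Sphk1 (sphingosine kinase), Akap12 (a scaffold of protein kinase A), Tns1 (tensin), Dpysl3 and Dyrk1b, had no difference between P1 and P12 above 0.84.

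Dpep1, a membrane dipeptidase that acts on leukotriene D4, had the deepest trough by the smaller of its differences. It read 9.04, 6.82, 6.82 and 6.83 at P1, 5.23, 5.56, 5.75 and 5.70 at P12 and 10.03, 9.06 and 8.77 at P28. P1 replicate 1 was more than 2 log2 units above the other P1 arrays and near the P28 arrays; the rule was met without it as well. Tmem255a read 9.62 to 10.31, 8.51 to 8.75 and 9.63 to 9.81, and Tmem45a 5.82 to 6.67, 5.13 to 5.54 and 6.24 to 6.88, both transmembrane proteins. Mgst1 (a microsomal glutathione transferase), Aox1 (aldehyde oxidase), Selenbp1, Gcc1 (a Golgi protein), Dnase1l1, Tro (trophinin) and the other 7 genes of this group had P1 minus P12 from 0.60 to 1.05 and P28 minus P12 from 0.55 to 1.93.

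Other probe sets of the same genes measure other stretches of their transcripts on the same arrays and RNA. Of 80 other probe sets, for 39 genes, 55 had P12 below both other ages by the means, against 23.0% of all genes. In 18 the P12 arrays lay below all others, against 1.3% of all genes. Both minimum differences were met without overlap in 17, for 16 genes. The shares over all genes rest on 1 probe set per gene, and these 80 probe sets belong to genes chosen for a trough on the same arrays. The counts are therefore a description and no test. Among 21 with a mean of at least 6, 17 dipped by the means and 7 met these conditions. The second Aspn probe set had means of 7.71, 5.34 and 7.59 and the second Ogn probe set of 8.48, 6.99 and 9.14, so both repeated the trough. Further Thbs2, Pdgfra, Dpep1, Ccnd2, Tmem255a, Fst and Vldlr probe sets met the conditions too, and so did 1 of Myom2, named after its values were seen (9.51, 8.61 and 9.65). Those of Pdgfra, Dpep1, Tmem255a, Fst and Vldlr were dim, with P1 means of 5.04 to 5.76, under the P1 minimum of 6 that the rule set. Others did not: a Ccnd2 probe set read 6.97, 6.73 and 5.57, a Mybpc1 probe set 7.79, 7.26 and 6.45 and a Creb5 probe set 6.24, 6.38 and 7.60. Of the 7 Ccnd2 probe sets, only the chosen one and that at 6.99, 6.27 and 7.16 met the conditions. The brightest of the rest had means of 7.71, 6.76 and 6.88. No other probe set of Smoc2, Sfrp1, Ebf2, Lox, Sox5, Clmp, Tro or Timp4 met the conditions, although some dipped by the means. A further Pdgfra probe set (5.07, 4.99 and 6.01) and most further Vldlr probe sets missed them too. For the other 41 genes the pattern rests on a single probe set.

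At the edge of the rule, the genes just inside the minimum difference of 0.5 were Usp54 (0.50), Sox5 (0.50) and Clmp (0.51), and those just outside were Tyrobp (0.49), Tle2 (0.49) and Irf9 (0.49). Just under the P1 minimum were Scn7a (5.99), Dkk3 (5.92) and Meox2 (5.80). Tyrobp, the adaptor of activating receptors in macrophages, had means of 7.16, 6.66 and 8.68, and Scn7a, a sodium channel relative, of 5.99, 4.54 and 6.34, a trough deeper than that of most of the 80 genes.

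How far the genes returned by P28 was compared with P1, the 1 contrast on which the rule set no condition of its own. A rise above P1 was free, whereas a fall was limited because P28 had to stay above P12. The rule also used the same P1 and P28 arrays. The split between higher and lower genes, and its distance from the shares of all genes, is therefore a description and no test of the group. P28 was above P1 by the means in 58 of the 80 genes and below in 22, with a median difference of 0.33 (range -0.86 to 2.01). In the limma test 30 were higher (37.5%, against 20.1% of all genes), 2 were lower (2.5%, against 16.4%), and 48 did not pass. By group, the higher genes were 10 of 17 matrix, 5 of 9 immune, 5 of 17 signal and receptor, 4 of 16 metabolic and other, 2 of 9 intracellular signalling, 2 of 6 sarcomere and 2 of 6 transcription genes. With only replicates 1 and 2 of P1 and P12, whose Gapdh difference was the larger, the count of higher genes was 17.

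The largest increases were those of Smoc2 (2.01 ± 0.27, SE, adjusted p = 3.83e-05), Alox5ap (1.96 ± 0.15, adjusted p = 1.63e-07), Dpep1 (1.91 ± 0.45, adjusted p = 0.0036), Lsp1 (1.70 ± 0.19, adjusted p = 6.36e-06) and Cd14 (1.57 ± 0.23, adjusted p = 9.6e-05), all by limma with Benjamini-Hochberg adjustment over 18193 genes. In Dpep1 the P28 arrays overlapped P1 replicate 1. Timp1 was higher by 1.28 ± 0.18, Mgp by 1.27 ± 0.24, Thbs2 by 0.86 ± 0.17, Bmp6 by 0.95 ± 0.23 and Myoz2 by 1.02 ± 0.26. Myoz2 did not pass once the Gapdh difference entered the fit (0.76, adjusted p = 0.122), and Dpep1 and Bmp6 did not pass with replicates 1 and 2 alone (adjusted p = 0.103 and 0.113). Thbs2 did not pass with the mean of all its probe sets (0.43, adjusted p = 0.0636). Among others that passed, Axl, Vldlr, Has1, P3h3, Creb5 and Myom1, with differences of 0.60 to 1.14, kept the call with any single array left out. Pf4 (0.54 ± 0.20, adjusted p = 0.0446) and Lox (0.52 ± 0.18, adjusted p = 0.0327) did not: with single arrays left out Pf4 passed only without P1 replicate 1 or P28 replicate 1, and Lox failed without P1 replicate 3 or 4 or P28 replicate 1 or 2. A replicate block also ended both calls (Pf4 0.53, adjusted p = 0.0788; Lox 0.44, adjusted p = 0.0636). Cd34 (0.61 ± 0.17, adjusted p = 0.0105) failed without P28 replicate 1 (0.49, adjusted p = 0.059).

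Lower at P28 than at P1 were Cpa3 (-0.86 ± 0.20, SE, adjusted p = 0.00371) and Tro (-0.47 ± 0.15, adjusted p = 0.0236, limma). The Cpa3 call held with any single array left out, but not with replicates 1 and 2 alone (-0.80, adjusted p = 0.0502). Tro did not pass without P1 replicate 2 (adjusted p = 0.0639), P1 replicate 4 (0.0558), P28 replicate 2 (0.0574) or P28 replicate 3 (0.141).

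The genes that did not pass included the deepest matrix troughs. Aspn was 0.73 ± 0.28 higher at P28 (SE, adjusted p = 0.0531, limma) and passed in 7 of 22 other settings, among them the replicate block (0.82, adjusted p = 0.0492), whereas Ogn was at -0.23, with a 95% interval from -0.85 to 0.39. Thbs3 was at 0.26 (interval -0.20 to 0.72), Pdgfra at 0.46 (-0.19 to 1.12), Cd68 at 0.44 (-0.07 to 0.94), Sfrp1 at 0.61 (-0.01 to 1.23), Agtr1a at 0.21 (-0.42 to 0.84), Ifitm1 at -0.16 (-0.59 to 0.26), Ebf2 at -0.17 (-0.62 to 0.28) and Zfp945 at -0.43 (-0.92 to 0.07). These intervals, not adjusted for the number of genes, include 0 and most also include rises of the size seen in Lox. Cd68 passed without P28 replicate 1 (0.73, adjusted p = 0.0194), and Sfrp1 without P28 replicate 3 (0.96, adjusted p = 0.0172).

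**Figure D5:**
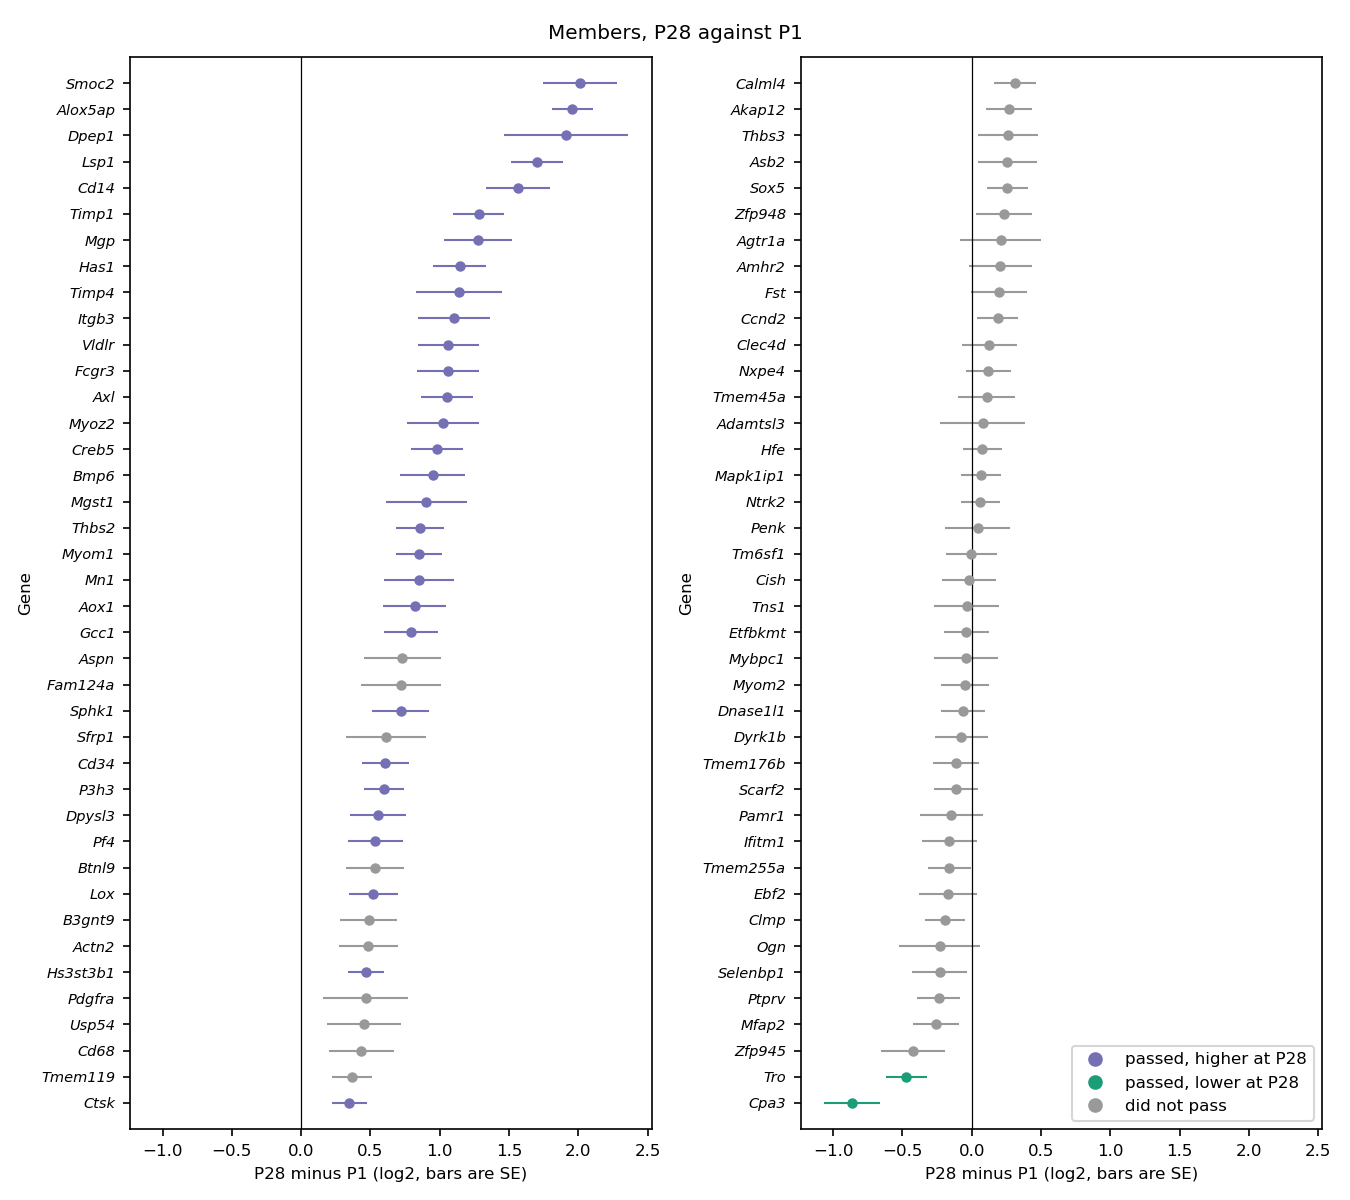
P28 mean minus P1 mean of each of the 80 genes in log2 units with its SE from the limma fit, ordered by size and coloured by whether the gene passed at an adjusted p under 0.05. Smoc2, Alox5ap and Dpep1 stand at the top with differences of 1.91 to 2.01, and Cpa3 is at the bottom with -0.86.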

How the data were processed

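RNA of 11 samples was hybridised to Affymetrix mouse genome arrays. The values deposited by the authors are on a log2 scale; the submitters' processing notes name Affymetrix Expression Console, RMA and affy, and the values were used as deposited. Of 45101 probe sets, those with 1 gene symbol were kept and 64 controls left out, and the probe set with the highest mean over 11 arrays stood for each of 18193 genes. limma 3.58.1 (R 4.3.3) fitted 1 mean per age over all arrays, with empirical Bayes variances and Benjamini-Hochberg adjustment over all genes, at an adjusted p under 0.05. This fit was also run on simulated data with independent noise and shifts added at P28 only. That simulation held no sets of arrays, distant array or RNA quality difference, so it cannot show how the calls hold for these arrays. The number of arrays limits the precision. The genes valued singly were chosen by a rule on trough depth, on membership of the gene lists and on nearness to the threshold; members and lists were chosen with earlier results of these data known. For the fits with a replicate block, replicate numbers were taken to pair P1 with P12, since deviations of same-numbered arrays correlated by 0.15, 0.27, 0.34 and 0.18. Differently numbered arrays correlated about as much within replicates 1 and 2 or within 3 and 4 (0.14 to 0.25), and at -0.31 to -0.10 across these, so the values also fit 2 sets of arrays. The main fit did not use this pairing, so its P12 against P1 tests are unpaired. No fit over all arrays held the 2 sets as a factor. The block is an alternative. It used the replicate number of every array, P28 included. Same-numbered P28 arrays correlated with P1 or P12 arrays by -0.09 to 0.13 only. Other alternatives left out single arrays or changed the rule, the normalization, the probe set choice, the filter, the array weights or the Gapdh 3' to 5' covariate. Fits on replicates 1 and 2, or 3 and 4, of P1 and P12 were added after seeing the data. Coordinates are those of the RefSeq promoter table.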

Additional observations from a re-analysis of the deposited data

Results flagged for a closer look

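For a single group the cut-off for a lone array flags about 5% by chance. The 68 groups of 4 arrays examined for the singly valued genes share the same arrays, and their genes were chosen by array values. That share is therefore no test here. In 8 of these 68 groups, 1 array lay far from the other 3 of its age. At P1, replicate 1 was the distant array in 5 of them: Dpep1 read 9.04 there against 6.82 to 6.83 in the others, Pf4 9.72 against 9.13 to 9.22, Lsp1 8.49 against 7.80 to 7.90, Usp54 8.69 against 7.71 to 7.81, and Tmem45a 5.82 against 6.55 to 6.67. P1 replicate 3 was the distant array for Agtr1a (6.86 against 7.11 to 7.14) and Thbs2 (7.92 against 8.16 to 8.19). At P12, replicate 1 was the distant array for Penk, at 4.84 against 5.85 to 5.91. The P28 group has 3 arrays and was not examined this way.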

How the results depend on the processing

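The rule found 80 genes; it found 40 with differences of at least 0.75, 24 with at least 1, 48 with a P1 mean of at least 7, 149 without the non-overlap condition and 220 with replicates 1 and 2 of P1 and P12 alone (75 shared), and 76 to 110 with 1 array left out. The 30 genes higher at P28 than at P1 became 17 with replicates 1 and 2 alone and 25 to 33 with 1 array left out. The 2 lower genes became 4 after further quantile normalization, 5 with the mean of all probe sets, 0 with replicates 1 and 2, 1 with replicates 3 and 4, and 1 to 2 with 1 array left out. With the mean of all probe sets, the P28 minus P1 differences of Tmem255a and Ccnd2 turned to 0.51 and -0.38; the cause of these changes was not tested. Genes of the lists that passed numbered 75 in P12 against P1 (39 to 91 with 1 array left out, the lowest without P12 replicate 1), 248 in P28 against P12 (229 to 259) and 271 in P28 against P1 (241 to 278). With a replicate block these counts were 81, 259 and 280, and 31 and 2 of the 80 genes were higher and lower at P28 than at P1; beyond the calls given with their results, the block moved no such total by over 1.5 times. Of 748 combinations of a singly valued gene and an alternative, 691 kept direction and call. Low signals near the background limit the resolution of dim P12 values.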
